A study of Mus musculus with 6 samples.

Results

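Collagen genes were taken as the protein-coding genes of the GENCODE vM21 mouse annotation whose symbol is Col, a number, the letter a and a number. The rule found 44 genes among the 36047 genes, 22028 of them protein-coding, that have a transcript in the deposited tables. The study sequenced polyA RNA from MLE-12, an established murine lung epithelial cell line. It asked how cigarette smoke extract (CSE), the material trapped when smoke is drawn through a buffer, alters this line. The genotype is given as wild type, while the line was derived from tumours driven by the SV40 large T antigen under the surfactant protein C promoter. CSE at 5% of the medium, from a stock with an optical density of 2.0, was added once cells covered 30% of the surface, and the control cultures received the same volume of phosphate-buffered saline (PBS). All cultures grew in DME/F12 with fetal bovine serum, insulin-transferrin-selenium and antibiotics and were harvested 24 hours after the addition. Each group has 3 libraries. The labels do not say whether they came from separate cultures, so p-values measure the spread between libraries, which may be technical. The RNA extraction text in the labels speaks of lung tissue, while the sample labels name the cell line.

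Collagens are secreted or membrane-bound proteins in which 3 polypeptides, called alpha chains, wind around each other through long stretches of the repeat Gly-X-Y, where glycine opens each triplet. Fibrillar collagens form the ropes of connective tissue, type IV collagens form the sheet-like network of basement membranes, FACIT collagens sit on the surface of fibrils, and transmembrane collagens stay anchored in the plasma membrane. Alveolar epithelial cells rest on a basement membrane fused with that of the capillaries, in which the α3, α4 and α5 chains of type IV collagen form a trimer of their own beside the widespread trimer of α1 and α2 chains.

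The 6 type IV genes lie in 3 head-to-head pairs, each pair read in opposite directions from neighbouring start sites. In GRCm38, Col4a4 and Col4a3 on chromosome 1 have 71 bases between their annotated starts (82586849 and 82586921), Col4a6 and Col4a5 on chromosome X have 1308 bases (141474076 and 141475385), and the first exons of Col4a1 (start 11312826) and Col4a2 (start 11312805) on chromosome 8 overlap. The DNA between or before the starts is shown for the 2 pairs whose members were both lower after CSE. Sequences come from RefSeq promoter windows on GRCm38.p6 and are printed 5′ to 3′ on the strand of the first gene named. Capitals mark matches to 5 motifs described next.
Col4a4 to Col4a3, all bases between the starts, chr1:82586850-82586920, minus strand: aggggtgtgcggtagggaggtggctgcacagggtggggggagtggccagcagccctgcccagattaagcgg
Col4a5, before its annotated start, chrX:141475169-141475384, plus strand: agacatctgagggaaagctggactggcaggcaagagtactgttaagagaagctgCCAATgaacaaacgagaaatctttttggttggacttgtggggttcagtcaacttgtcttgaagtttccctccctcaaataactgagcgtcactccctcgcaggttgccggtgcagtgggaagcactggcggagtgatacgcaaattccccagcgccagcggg
Col4a6, before its annotated start, chrX:141474077-141474326, minus strand: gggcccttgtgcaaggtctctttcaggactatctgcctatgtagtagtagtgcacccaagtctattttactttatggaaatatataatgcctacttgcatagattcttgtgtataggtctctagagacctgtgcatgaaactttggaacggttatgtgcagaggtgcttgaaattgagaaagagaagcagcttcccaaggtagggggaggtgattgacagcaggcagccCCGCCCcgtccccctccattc

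The motifs were searched on both strands in the 250 bases before the RefSeq start, and matches that overlap were counted for each motif. They were GGGCGG (the GC box), CCAAT (the CCAAT box), TATAAA (the TATA box), GCGTG (the core bound by the aryl hydrocarbon receptor) and TGACNNNGC (the core of the antioxidant response element). The stretch between Col4a4 and Col4a3 held none of the 5, the Col4a5 stretch held 1 CCAAT, and the Col4a6 stretch held 1 GGGCGG, read as CCGCCC on the printed strand. The searched Col4a5 window also runs past the annotated start, and held 1 GGGCGG there. RefSeq windows were found for 35 of the 44 collagen genes, in 38 windows, but not under the names of Col1a1, Col12a1 and Col4a3. Of these windows, 22 (57.9%) held GGGCGG, against 32.7% of all 32851 windows. CCAAT was in 34.2% of collagen windows against 33.8% of all, TATAAA in 13.2% against 12.4%, GCGTG in 21.1% against 28.2% and TGACNNNGC in 15.8% against 10.2%. A match describes letters in this window and shows no binding.

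Levels are given as TPM (transcript abundance per length, scaled to the same sum in every library), which corrects for transcript length, and changes as log2 fold changes of CSE against PBS from edgeR's quasi-likelihood test on summed estimated counts. A gene is called at an edgeR adjusted p (Benjamini-Hochberg, over all genes tested) under 0.05. Library totals ran from 12093009 to 24050167 estimated counts, and 13451 genes had enough counts to be tested. Of all genes tested, 4.32% were called higher and 7.12% lower after CSE, and the TPM of the groups did not overlap in 27.2%. Genes called higher were 37.8% of all called on counts, and 22.4% and 22.3% with limma on log2(TPM + 1) and log2(TPM + 0.1). The median log2 change of all genes tested was 0.0056.

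After CSE, 9 collagen genes were lower and 1 was higher, among the 24 that could be tested. The 9 lower genes encode 4 of the 6 type IV chains (Col4a3, Col4a4, Col4a5, Col4a6), the α1 and α2 chains of type VI (Col6a1, Col6a2), Col1a1, Col8a1 and Col11a2, and the higher gene was Col12a1. All 10 had groups that did not overlap in TPM, and 1 more tested gene, Col5a2, also did not overlap. Another 14 tested genes were not called, 11 of them with a fitted value below 0, and the median log2 change of the 24 was −0.47. The remaining 20 genes had too few counts to be tested. In bulk libraries, fewer cells of a type and less RNA per cell cannot be told apart.

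**Figure D1:**
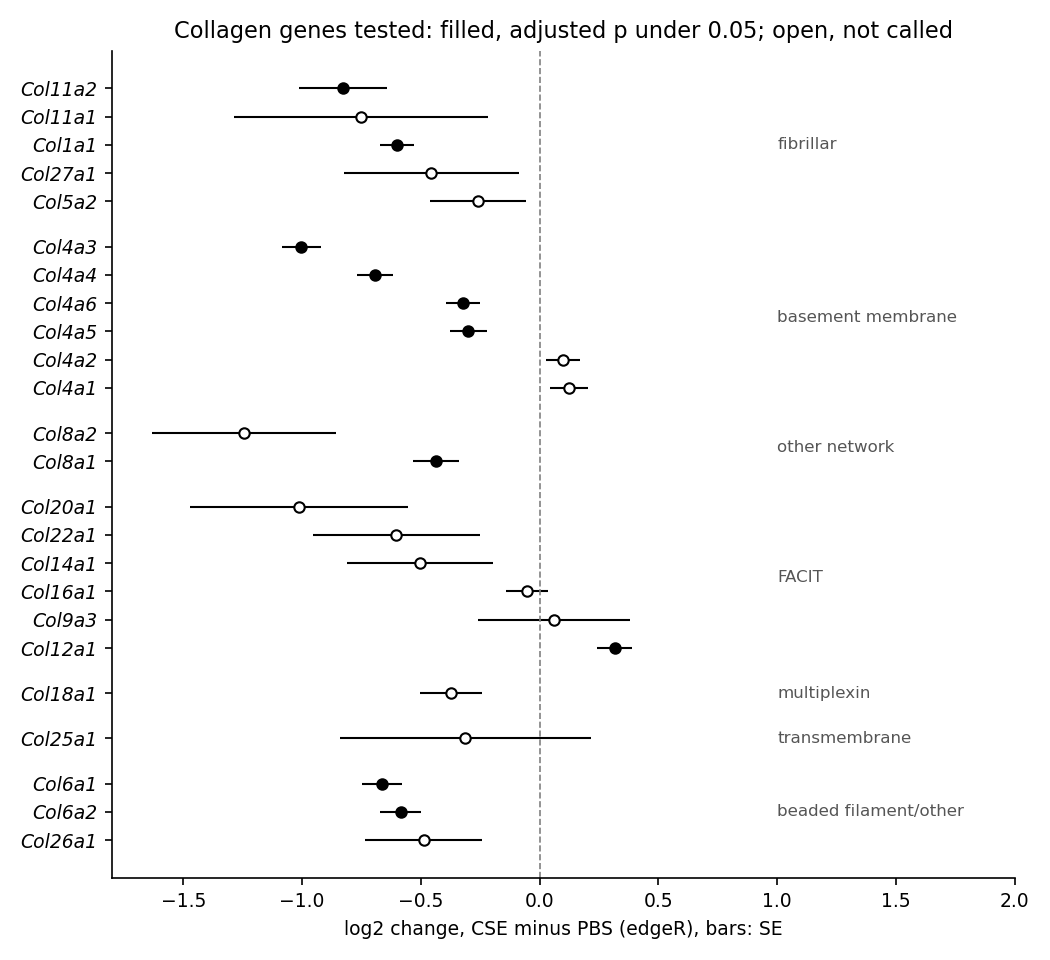
Log2 change of CSE against PBS for the 24 tested collagen genes, grouped by structural class (points: edgeR estimate, bars: SE; filled points are called at adjusted p under 0.05). Called genes with negative values are found in the fibrillar, basement membrane, other network and beaded filament classes, and Col12a1 is the 1 called gene above 0.

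Collagen RNA in these cells was mostly type IV. The PBS libraries summed to 1454, 1419.9 and 1634 collagen TPM and the CSE libraries to 1346, 1334 and 1234, and every CSE library was below every PBS library. The 6 type IV genes made up 85.3 to 87.5% of that sum in PBS and 86.1 to 86.9% in CSE. By mean PBS level, Col4a5 ranked 262nd, Col4a1 308th and Col4a2 764th of the 22028 protein-coding genes, whereas Col1a1 ranked 7428th. Means of at least 1 TPM in a group were reached by 17 collagen genes, and 27 stayed below it in both groups.

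**Figure D2:**
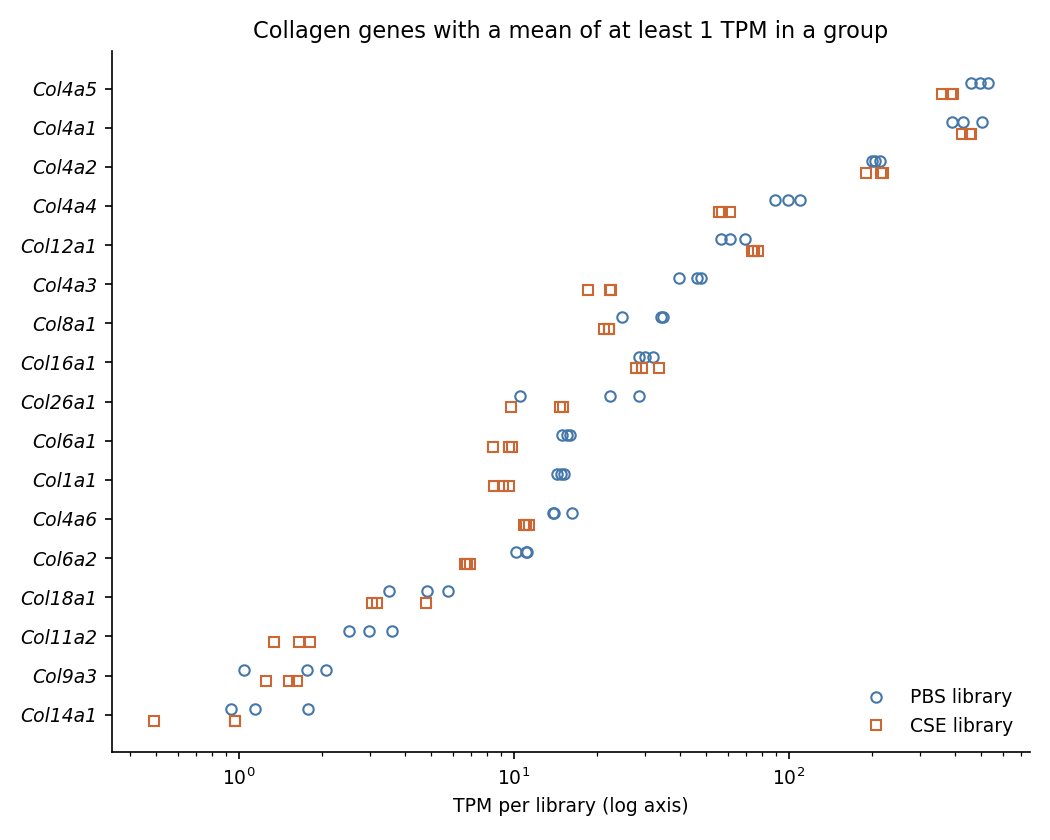
TPM in each library (log axis) of the 17 collagen genes that average 1 TPM or more in PBS or CSE, ordered by level, with circles for the 3 PBS and squares for the 3 CSE libraries. Col4a5, Col4a1 and Col4a2 stand above 100 TPM in every library, and the symbols of the groups separate for Col4a3, Col4a4, Col4a5, Col4a6, Col6a1, Col6a2, Col1a1, Col8a1, Col11a2 and Col12a1.

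The α3 and α4 chains of type IV collagen, which with α5 build the trimer of the alveolar and glomerular basement membranes, were both lower after CSE, and Col4a3 had the largest log2 change of the 10 collagens called. Col4a3 (chr1:82586921-82722059) was at 39.8, 46.4 and 47.7 TPM in PBS and at 22.6, 22.4 and 18.5 TPM in CSE. Its highest CSE library was below its lowest PBS library, and the log2 change was −1.003 ± 0.08 (SE, edgeR adjusted p = 2.55e-05), a level 0.499 times that of PBS. Col4a4 (chr1:82448423-82586849), its head-to-head neighbour, was at 89.1, 98.8 and 110.0 TPM in PBS and 61.0, 55.7 and 56.9 TPM in CSE, also without overlap. The log2 change of Col4a4 was −0.69 ± 0.07 (edgeR adjusted p = 0.000159). Both genes kept their call in all 18 alternative analyses. Of the 31-base words of the main Col4a3 transcript, 5.92% also occur in C430014B12Rik, a gene on the opposite strand that is not analysed here. Strand use in the counting is not given in the sources used here.

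The α5 and α6 chains, encoded on the X chromosome, changed less. Col4a5 (chrX:141475385-141689234), whose chain joins α3 and α4 or α6, was at 496, 460.5 and 529 TPM in PBS, the highest gene-level TPM of the collagens, although Col4a1 had more counts (61558 against 59852 over the PBS libraries) and most of the Col4a5 TPM came from a short transcript. In CSE it was at 395, 388 and 361 TPM, below every PBS library, with a log2 change of −0.30 ± 0.08 (edgeR adjusted p = 0.0291). Col4a6 (chrX:141165403-141474076), whose chain pairs with α5 in other basement membranes, was at 14.0, 13.8 and 16.3 TPM in PBS and 11.1, 11.4 and 10.9 TPM in CSE. Its groups did not overlap, and the log2 change was −0.32 ± 0.07 (edgeR adjusted p = 0.0147). Both calls are near the threshold. Without PBS library 3, CSE library 1, 2 or 3, the edgeR adjusted p of Col4a5 was 0.116, 0.112, 0.114 and 0.137, and that of Col4a6 was 0.0625, 0.0727, 0.0667 and 0.0554. Col4a6 was also not called on log2 TPM (limma adjusted p = 0.0750 and 0.0683 with pseudocounts of 1 and 0.1) or after removal of GC and length trends (edgeR adjusted p = 0.0743).

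The α1 and α2 chains, which form the trimer present in nearly all basement membranes, were not called. Col4a1 (chr8:11198423-11312826) was at 429, 392 and 504 TPM in PBS and 461, 456 and 424 TPM in CSE, so that the CSE libraries lay within the range of the PBS libraries. Its log2 change was 0.12 ± 0.08 (edgeR adjusted p = 0.369). Col4a2 (chr8:11312805-11449287) was at 205, 199.7 and 214 TPM in PBS and 220.5, 217 and 190.5 TPM in CSE, with overlapping groups and a log2 change of 0.10 ± 0.07 (edgeR adjusted p = 0.425). Once trends over GC content and length were taken out of each library, both were called higher, with log2 changes of 0.27 (edgeR adjusted p = 0.0205) and 0.34 (edgeR adjusted p = 0.00413). Each of the 3 head-to-head pairs therefore held genes with the same call in the unadjusted analysis.

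**Figure D3:**
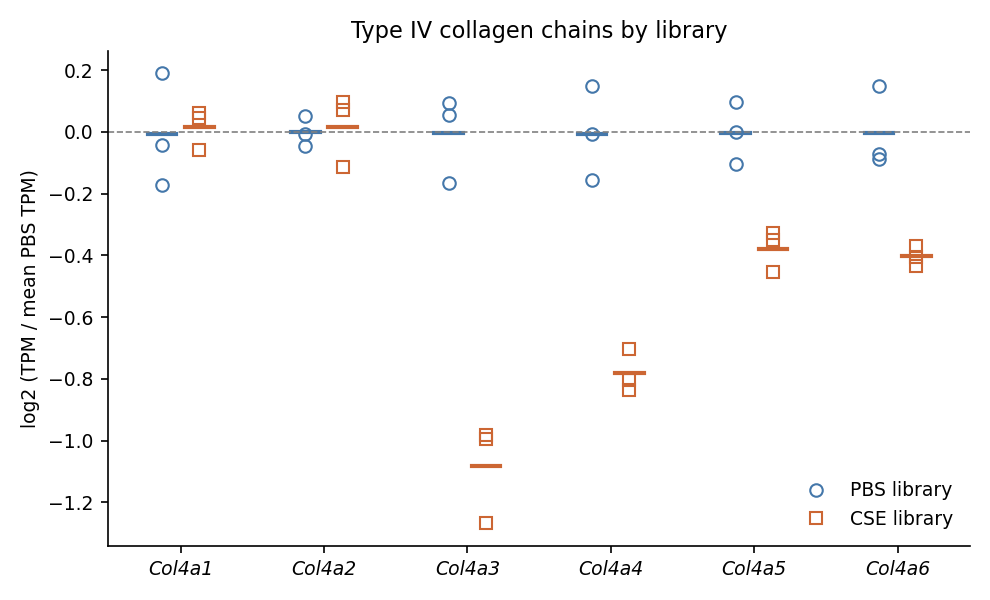
TPM of the 6 type IV chains in each library, as log2 of the value over the gene's mean PBS level (circles: PBS, squares: CSE, lines: group means). Col4a3 and Col4a4 lie lowest in the CSE libraries, Col4a5 and Col4a6 between, and Col4a1 and Col4a2 around 0.

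The balance between chains was followed as the log2 ratio of counts per library. For 8 pairs of chains, 3 against 3 libraries allow no exact two-sided permutation p under 0.1, so the ratios are mainly a description. The ratio Col4a3/Col4a4 was −1.36 ± 0.06 (SD, n = 3) in PBS and −1.67 ± 0.17 (SD, n = 3) in CSE, a difference of −0.31 without overlap (exact permutation p = 0.1, adjusted p = 0.2). The paired chains Col4a1/Col4a2 (difference 0.03), Col4a5/Col4a6 (0.02) and Col6a1/Col6a2 (−0.08) overlapped between groups, with exact permutation p of 0.7, 0.7 and 0.4, and Col11a1/Col11a2 differed by −0.21 with overlap (exact permutation p = 0.8). The Col11a1/Col11a2 difference was 0.34 in TPM and −0.87 on protein-coding transcripts alone, so its sign depended on the unit. The ratios Col4a3/Col4a1 and Col4a4/Col4a2 were chosen after the values were seen. The adjusted p of Col4a3/Col4a4 was taken over all 8 ratios, these included, and not over the planned pairs alone. Col4a3/Col4a1 went from −2.34 ± 0.19 (SD, n = 3) to −3.47 ± 0.09 (SD, n = 3), and Col4a4/Col4a2 from −0.45 ± 0.13 to −1.24 ± 0.12. Both were without overlap, but as they were picked for their values, no p is given for them. In TPM, Col4a3 and Col4a4 together were 20.3 to 24.5% of Col4a1 and Col4a2 together in PBS, and 11.6 to 12.3% in CSE.

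Type VIII collagen forms the hexagonal network of endothelial and corneal basement membranes. Col8a1 (chr16:57624258-57754737) was at 24.8, 34.1 and 34.9 TPM in PBS and 22.1, 22.2 and 21.3 TPM in CSE. PBS library 1 stood nearer to the CSE libraries than to the other PBS libraries, though above all of them, and the log2 change was −0.44 ± 0.10 (edgeR adjusted p = 0.0147). The call was lost without PBS library 3 (edgeR adjusted p = 0.0649), CSE library 1 (0.0513) or CSE library 2 (0.0619), and on log2 TPM (limma adjusted p = 0.0591 and 0.0583). Its partner Col8a2 was scarce, with means of 0.408 ± 0.163 TPM in PBS and 0.395 ± 0.400 TPM in CSE (SD, n = 3), and was not called (log2 change −1.25 ± 0.39, edgeR adjusted p = 0.0653). It was called without PBS library 1 (edgeR adjusted p = 0.0351), and with an offset for effective length its log2 change was −0.41 (edgeR adjusted p = 0.739). The Col8a1/Col8a2 ratio rested on its unit, with a difference of 0.73 in counts, without overlap (exact permutation p = 0.1), and −0.06 in TPM. Col10a1, the network collagen of growth-plate cartilage, had 6 counts in PBS and 7 in CSE.

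Fibrillar collagens were a minor share of the collagen RNA. Their summed level was 18.8, 21.2 and 20.9 TPM in PBS and 12.3, 13.1 and 11.8 TPM in CSE, and of the 11 genes 5 were tested, 2 were lower and 3 were not called. Col1a1 (chr11:94936224-94953042), the α1 chain of type I collagen, was at 14.3, 14.8 and 15.2 TPM in PBS and 9.11, 9.59 and 8.45 TPM in CSE, with tight groups that did not overlap. Its log2 change was −0.60 ± 0.07 (edgeR adjusted p = 0.000353), called in all 18 alternatives. Type I collagen normally combines this chain with that of Col1a2, of which almost no RNA was seen. Col1a2 had 9, 8 and 10 counts in PBS and 0, 3 and 1 in CSE, a depth-scaled ratio of 0.143 (95% interval 0.0363 to 0.409, counting error only), against 2709 and 1835 counts of Col1a1. Col1a2 was below the filter and is not among the genes called. With no filter its log2 change was −2.74 ± 0.86 (edgeR adjusted p = 0.0191).

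Col11a2 (chr17:34039437-34066685), a chain of the cartilage fibril collagen type XI, was at 2.51, 3.61 and 2.97 TPM in PBS and 1.34, 1.81 and 1.65 TPM in CSE. The groups did not overlap, with a log2 change of −0.83 ± 0.18 (edgeR adjusted p = 0.0147). The call was lost without CSE library 2 (edgeR adjusted p = 0.0558), on log2 TPM (limma adjusted p = 0.0771 and 0.0843) and after removal of GC and length trends (edgeR adjusted p = 0.0623). Col5a2, Col11a1 and Col27a1 were below 1 TPM in both groups and were not called. Col3a1, the fibrillar collagen of distensible tissues, had 3 counts in PBS and 4 in CSE, and Col2a1, the fibril collagen of cartilage, had 9 and 9. Col5a1 had 10 and 13 counts.

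FACIT collagens included the one gene that was higher. Col12a1 (chr9:79598991-79718831), which binds type I fibrils through a short triple-helical tail and carries a very large non-collagenous part, was at 61.1, 56.5 and 69.1 TPM in PBS and 74.6, 73.5 and 77.3 TPM in CSE. Its groups did not overlap, and the log2 change was 0.32 ± 0.07 (edgeR adjusted p = 0.0199), a level 1.24 times that of PBS. The call was lost without CSE library 1, 2 or 3 (edgeR adjusted p = 0.0818, 0.0608 and 0.0877) and on log2 TPM (limma adjusted p = 0.106 and 0.110). Col16a1 was at 31.9, 29.8 and 28.5 TPM in PBS and 27.8, 33.6 and 29.3 TPM in CSE, fully overlapping (log2 change −0.05 ± 0.09, edgeR adjusted p = 0.760). The other tested FACIT genes, Col9a3, Col14a1, Col20a1 and Col22a1, were not called. Col20a1 had the smallest p among them, with a log2 change of −1.01 ± 0.46 (edgeR adjusted p = 0.192) at 0.725 ± 0.288 TPM in PBS and 0.559 ± 0.257 TPM in CSE (SD, n = 3).

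Type VI collagen forms beaded filaments around cells from 1 chain each of α1, α2 and a longer chain. Col6a1 (chr10:76708792-76726168) was at 15.6, 15.0 and 16.0 TPM in PBS and 9.85, 9.60 and 8.38 TPM in CSE. Its groups were well apart, with a log2 change of −0.66 ± 0.08 (edgeR adjusted p = 0.000456). Col6a2 (chr10:76595762-76623630) was at 10.1, 11.1 and 11.1 TPM in PBS and 6.90, 6.63 and 6.74 TPM in CSE, also apart, with a log2 change of −0.58 ± 0.09 (edgeR adjusted p = 0.00139). Both kept their call in all 18 alternatives. The usual long chain, Col6a3, was under the filter with 28 counts in PBS and 13 in CSE (depth-scaled ratio 0.447, 95% interval 0.212 to 0.891, counting error only). Its groups overlapped in TPM, and it was not called with no filter. Col6a6 had 5 and 3 counts, and Col6a4 and Col6a5 had none.

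Col26a1, grouped with the others by exclusion, was at 10.5, 28.5 and 22.4 TPM in PBS and 15.0, 14.7 and 9.74 TPM in CSE. PBS library 1 lay among the CSE libraries, the groups overlapped, and the log2 change was −0.49 ± 0.25 (edgeR adjusted p = 0.240), but −0.71 (edgeR adjusted p = 0.0250) without that library. A single 578-base retained-intron transcript carried 97.1% of this gene's TPM, and 19.5% of its 31-base words also occur in Srrm3, so the value is uncertain as a measure of Col26a1 coding RNA. Srrm3 itself was at 0.648 to 1.33 TPM across the libraries. Col7a1, the anchoring fibril of the skin, had 12 counts in PBS and 22 in CSE (ratio 1.76, 95% interval 0.836 to 3.91) and was not tested.

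Multiplexin and transmembrane collagens were scarce. Col18a1, the basement membrane proteoglycan from which endostatin is cut, was the abundant multiplexin at 4.70 ± 1.13 TPM in PBS and 3.67 ± 0.975 TPM in CSE (SD, n = 3), with a log2 change of −0.37 ± 0.13 (edgeR adjusted p = 0.0978). Col15a1 had 7 and 6 counts. The 4 transmembrane collagens summed to 0.643 ± 0.288 TPM in PBS and 0.422 ± 0.097 TPM in CSE (SD, n = 3). Of these, Col25a1 was tested and not called (edgeR adjusted p = 0.759), Col23a1 had 29 and 19 counts, Col17a1 of the hemidesmosome had 6 and 2, and Col13a1 had none. Counts in PBS and CSE were 7 and 15 for Col28a1, 6 and 2 for Col19a1, 5 and 0 for Col5a3, 2 and 3 for Col24a1, 2 and 0 for Col9a2 and 1 and 0 for Col9a1, too few to compare. Across the 17 untested genes with a count, the highest total was 48, and Col1a2 and Col6a3 were the 2 whose ratio interval left out 1. That interval covers counting error only, and the groups of Col6a3 overlapped in TPM.

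Several gene-level values rested on short annotated transcripts that are non-coding or lack the coding start. Col4a5-204, 3511 bases long, carried 86.1% of the Col4a5 TPM, at 425 TPM in PBS and 329 TPM in CSE on average. The 2 full-length Col4a5 transcripts together were at 64.2, 55.1 and 87.4 TPM in PBS and 51.9, 53.0 and 48.7 TPM in CSE, still without overlap. Col12a1-204, with 1784 bases, carried 68.3% of the Col12a1 TPM and went from 41.5 to 52.2 TPM, without overlap. The full-length transcript of 11511 bases went from 13.4 to 15.4 TPM on average. Its groups overlapped, at 12.6, 12.3 and 15.5 TPM in PBS and 16.6, 14.8 and 14.8 TPM in CSE. Col4a1-206, with 1170 bases, carried 38.0% of the Col4a1 TPM. Col16a1-207, a processed transcript of 833 bases with no coding sequence, carried 66.7% of the Col16a1 TPM, averaging 19.2 (PBS) and 21.0 TPM (CSE). The main coding transcript of Col16a1 was at 9.68 and 8.42 TPM. For Col4a2, Col4a3, Col4a4, Col4a6, Col6a1, Col6a2, Col1a1, Col8a1 and Col11a2, at least 90.9% of the TPM came from 1 transcript, the smallest share being that of Col6a2. Because TPM divides by length, the TPM of Col4a5, Col4a1, Col12a1 and Col16a1 depends on how the quantifier split reads between such transcripts.

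The encoded chains differ in how the Gly-X-Y repeat is laid out, as counted in the longest annotated coding sequence over runs of at least 4 triplets. Col1a1 has 355 triplets and a single unbroken run of 338, the same longest run as Col5a1, Col11a1 and Col11a2. The type IV chains have 426 to 444 triplets, more than Col1a1, but broken into 22 to 27 runs, the longest being 39 triplets in Col4a3, 40 in Col4a1, 42 in Col4a5, 45 in Col4a4 and Col4a6, and 66 in Col4a2. Col6a1 and Col6a2 both have a longest run of 87 triplets. Col8a1 has 146 triplets, with a longest run of 60. Col12a1 has 83 triplets, 8.12% of its 3065 residues. Within type IV, the 4 genes that fell have 428 to 444 triplets and the 2 not called have 426 and 436.

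Genes that make, fold, move, cut, cross-link, bind or break collagen were described from 10 lists holding 149 genes, of which 99 were tested, 3 were higher, 26 were lower and 70 were not called. These counts stand against 4.32% higher and 7.12% lower over all genes. In the endoplasmic reticulum, collagen chains are hydroxylated and folded by dedicated enzymes and chaperones. Of 18 such genes, 17 were tested and 4 were lower, with a median log2 change of −0.08. P3h4, a scaffold of the lysyl hydroxylase complex, was at 549 ± 16.2 TPM in PBS and 309 ± 21.0 TPM in CSE (SD, n = 3; log2 change −0.75, edgeR adjusted p = 6.53e-05). P3h2, a prolyl 3-hydroxylase that acts on type IV collagen, had a log2 change of −0.42, P4ha2, a prolyl 4-hydroxylase subunit, −0.29, and Fkbp10, a collagen chaperone, −0.28. The abundant P4hb (938 and 801 TPM) and Ppib (450.4 and 458 TPM) were not called. Of the 8 genes of large-cargo export from the endoplasmic reticulum, Mia2 was higher (log2 change 0.37, edgeR adjusted p = 0.00557) and 7 were not called, among them Sec13 and Sec31a.

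Outside the cell, propeptides are removed and chains are cross-linked. Bmp1, the main C-propeptide protease, fell from 151 ± 11.4 to 97.4 ± 8.45 TPM (SD, n = 3; log2 change −0.54, edgeR adjusted p = 0.00106) and was the 1 gene called of 7 tested, while Pcolce and Furin were not called. Among 5 tested cross-linking genes 3 were lower, with a median of −0.30. Loxl4 and Loxl2, lysyl oxidases, had log2 changes of −1.18 (edgeR adjusted p = 0.000137) and −0.45 (edgeR adjusted p = 0.0157), with Loxl2 at 207 and 144 TPM. Pxdn, which forms the sulfilimine bond between type IV collagen trimers, had −0.30 (edgeR adjusted p = 0.0483), and Tgm2 and Loxl3 were not called.

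Other matrix proteins lie beside collagen in basement membranes and fibrils. Of 12 tested basement membrane partners 6 were lower and none higher, with a median of −0.46. Hspg2 (perlecan) went from 275 ± 43.9 to 159.6 ± 20.1 TPM (SD, n = 3; log2 change −0.68), and Sparc, a collagen-binding chaperone of the matrix, from 3067 to 2026 TPM (−0.44). Fras1 had a log2 change of −0.89, the laminin chains Lama5 and Lamb2 −0.57 and −0.47, and nidogen Nid2 −0.41, while the laminin chain Lamc1 (363 and 306 TPM) and Agrn were not called. Of 8 tested fibril partners 4 were lower. The proteoglycan Dcn, which coats fibrils, fell from 954 ± 136 to 507 ± 37.4 TPM (SD, n = 3; log2 change −0.83, edgeR adjusted p = 0.000505), with Fbln1 at −0.65, Fmod at −0.48 and Tnc at −0.45, while Fn1 and Thbs1 were not called.

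Cells bind collagen through integrins and discoidin receptors and remove it with proteases. Among 9 tested collagen receptors Itga1, the collagen-binding integrin with a preference for type IV collagen, rose from 4.42 ± 0.293 to 7.33 ± 0.583 TPM (SD, n = 3; log2 change 0.83, edgeR adjusted p = 0.000116), Mrc2, which takes up collagen fragments, fell by 0.37 on the log2 scale, and Itgb1 and Ddr1 were not called. Of 9 tested breakdown genes, Mmp2, the type IV collagenase, and the inhibitor Timp2 were lower (−0.32 and −0.37), with Timp2 going from 482 to 354 TPM, while Ctsb and Timp3 were not called. Of 15 tested regulators around TGF-β signalling, which induces collagen transcription, Tgfbr2 (−0.59), Ski (−0.35), Tgfb3 (−0.27) and Smad4 (−0.26) were lower, and Ccn2 and Tgfb2 were not called. Of 9 tested genes for other proteins with a collagen domain, Scara5 was higher (1.31) and Colq lower (−1.34), both near 1 TPM, and Scara3 and C1qtnf12 were not called.

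**Figure D4:**
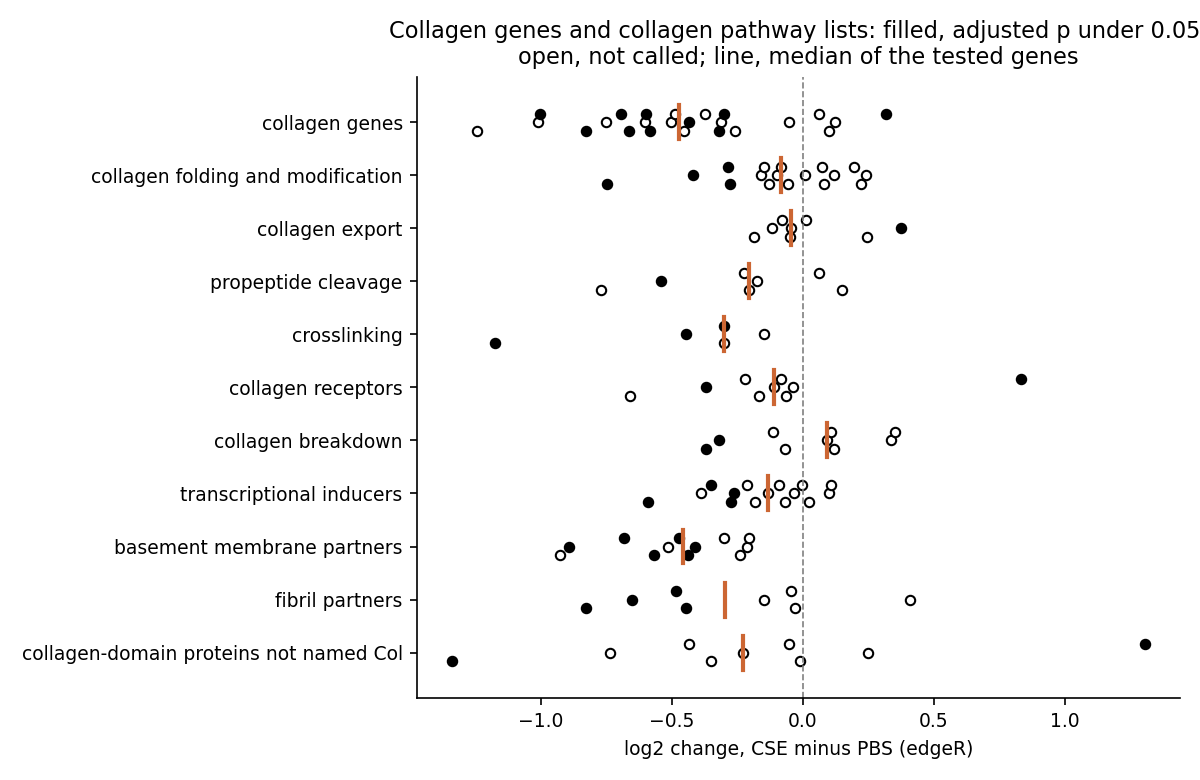
Log2 change of CSE against PBS for the tested collagen genes and the 10 pathway lists (1 point per gene, filled when called at edgeR adjusted p under 0.05; vertical lines are list medians). Collagen genes and basement membrane partners have the lowest medians, −0.47 and −0.46, while folding and export genes are centred near 0.

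Markers of several cell types moved with these results, and their part in the collagen changes was not tested. The counts of markers called stand against 4.32% higher and 7.12% lower over all genes tested. Epithelial markers summed to 1302 to 1416 TPM in PBS and 721 to 814 TPM in CSE (5 of 7 tested were lower), carried by Krt19 and Krt8, with Krt18, Cldn4 and Cldn7 below 1 TPM. Alveolar type 1 markers were at 702 to 759 and 408 to 462 TPM (4 of 5 lower), led by Aqp5 and Ager, and mesothelial markers at 195 to 220.4 and 60.8 to 69.1 TPM (3 of 4 lower), led by Msln and Upk3b. Alveolar type 2 markers were at 36.3 to 41.0 and 30.2 to 35.8 TPM, led by Abca3 and Sftpc (1 of 3 tested lower, Sftpc), with Sftpa1 at 0. The fibroblast list was at 872 to 1134 and 484 to 549 TPM, nearly all of it Dcn, with Col1a1 next (2 of 5 tested lower, Dcn and Col1a1, and 1 higher, Pdgfra), and Col1a2, Col3a1, Lum, Fap and Tcf21 were below 1 TPM in both groups. Summed levels were 14.2 to 20.3 and 9.34 to 14.7 TPM for myofibroblast markers (Tagln and Cnn1 highest), 2.28 to 2.80 and 1.37 to 3.29 TPM for endothelial (Pecam1 and Vwf, with Cdh5 at 0), 2.99 to 6.20 and 2.93 to 5.27 TPM for leukocyte (Cd68 and Lyz2), and 1.18 to 1.66 and 0.586 to 0.864 TPM for chondrocyte markers (Sox9 and Col2a1, with Matn1 at 0). In every library, 4 of the 5 myofibroblast, 2 of the 4 endothelial, 2 of the 4 leukocyte and 3 of the 4 chondrocyte markers were below 1 TPM. The tested myofibroblast (1), endothelial (2) and leukocyte (2) markers were not called, and Sox9, the 1 chondrocyte marker tested, was lower.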

How the data were processed

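RNA was measured in 3 PBS and 3 CSE libraries of MLE-12 cells. Per the file headers, the authors' deposited tables give for each transcript an effective length, an estimated count and a TPM value in the layout of kallisto. Kallisto 0.46.2, fastp 0.20.1, FastQC 0.12.1, DESeq2 1.40.2 and GRCm38 are named in the submitters' processing notes, without a role. The index and the strand setting are among the options not given in the sources used here. No column of other samples was present.

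Of 118489 transcripts, 116816 (98.6%) matched GENCODE vM21 by identifier and were summed per gene, and the others hold under 1% of the counts. Summed counts were rounded to whole numbers, filtered with filterByExpr (minimum count 10), scaled by TMM and tested with edgeR 4.0.16 (glmQLFit and glmQLFTest, two-sided, treatment as the only term) in R 4.3.3, with p adjusted over all 13451 genes tested. Scripts were tested on simulated data. Alternatives used limma 3.58.1 and DESeq2 1.42.0, other scaling and filters, transcript length and GC offsets, protein-coding transcripts alone, a replicate block, and each library left out. Untested genes are given by counts with a ratio scaled by library totals and a 95% conditional exact binomial interval, which covers counting error only. A total of 3 counts, the limit that a count of 0 allows, corresponds to 0.125 to 0.248 CPM. No pair of replicates agreed within sampling noise (chi-square per degree of freedom 5.61 to 17.7).

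Values in every library are given for collagens called or with a mean of at least 5 TPM in a group. The other tested collagens are summarised, with values for the 3 of smallest p, and untested ones by their counts. From each pathway list, the called genes (at most 6) and the 2 uncalled genes of highest level are named, and from each marker list the 2 of highest level. A single gene of the pathway lists is not reported here and is left out of their counts. The collagen genes, classes and lists were chosen with earlier results of these data known.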

Additional observations from a re-analysis of the deposited data

How the results depend on the processing

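Low counts and 3 libraries a group limit what can be called. The 20 collagen genes not tested had at most 48 counts each over all libraries together. Calls with edgeR adjusted p above 0.01 (Col4a5, Col4a6, Col8a1, Col11a2, Col12a1) were lost under some of the 18 alternatives, while Col4a3, Col4a4, Col6a1, Col6a2 and Col1a1 were called in all of them. The cause of each difference below was not tested, and leaving out a library also leaves fewer samples. Leaving out 1 library at a time gave 281 to 969 genes higher and 554 to 981 lower over all genes (581 and 958 with all libraries), 0 to 1 collagen genes higher and 5 to 11 lower, and 3 to 6 pathway genes higher and 15 to 28 lower. Over all genes, 969 were higher without PBS library 1 and 281 without CSE library 2, and 554 were lower without CSE library 3. With no low-count filter 1052 genes and 5 pathway genes were higher. On log2(TPM + 1) and log2(TPM + 0.1), limma called 224 and 220 genes higher and 0 collagens higher, so that genes called higher were 22.4% and 22.3% of all called, against 37.8% in the count analysis. That share was 47.9% with no filter and 49.9% without PBS library 1. Removal of GC and length trends gave 3 collagen and 7 pathway genes higher, and 7 collagen genes lower. The uncalled log2 change of Col16a1, −0.05, was above 0 with the length offset (0.10), on log2(TPM + 1) (0.0040) and log2(TPM + 0.1) (0.0041), after removal of GC and length trends (0.00014) and without CSE library 1 (0.014); leaving out each library gave −0.10 to 0.014. The Col8a1/Col8a2 ratio differed by −0.06 in TPM.

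Replicate numbers showed no clear pairing of the libraries. Deviations of same-numbered PBS and CSE libraries correlated at −0.124, 0.0061 and −0.059, and those of differently numbered libraries at −0.085 to 0.129. With 3 libraries a group, such values cannot decide whether libraries were handled in pairs. With the replicate block, 330 genes were higher and 687 lower, and 1 collagen gene was higher and 7 lower, with Col4a5 (edgeR adjusted p = 0.104) and Col4a6 (0.0505) no longer called. Among pathway genes 3 were higher and 18 lower.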
